A study of Danio rerio with 12 samples.

Results

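The 8 genes described here move iron into cells, store it, release it and recover it from heme. They are *tfa* (transferrin), *tfr1a*, *tfr1b* and *TFR2* (transferrin receptors), *slc11a2* (a ferrous iron importer), *fth1a* (ferritin heavy chain), *slc40a1* (ferroportin) and *hmox1a* (heme oxygenase). They were chosen by gene name and are 8 of the 32105 genes in the deposited table. *TFR2* (ENSDARG00000103727) stands in capitals there and was matched regardless of case. All 8 were among the 15602 genes with enough counts to be tested.

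The study asked how *grl*, also called *hey2*, a Hairy-related transcription factor gene, acts in heart regeneration. Ventricles were taken at 7 days after amputation of the ventricular apex (7 dpa) from adults of 5 months on the AB background that had received no drug. The mutants, *grl5nt-/-*, are homozygous for a 5-nucleotide deletion made with CRISPR/Cas9 that is predicted to leave only a short truncated peptide, and the controls are their wild-type (WT) siblings. Each genotype has 3 libraries of bulk RNA. Each library came from 6 pooled ventricles, so the spread between libraries is between pools and not between single fish. The deletion is present in every cell from the start of development, a single allele was sequenced, and the mutants are those that reached adulthood. Uninjured hearts were not part of this comparison. The libraries of fish that overexpress *grl* and of their controls are not analysed here.

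Iron travels in plasma bound to transferrin and enters cells when a transferrin receptor is taken up with its load. The importer Slc11a2 carries the freed iron out of the endosome, ferritin holds what is not used, and ferroportin is the exporter through which iron leaves cells. Erythroid cells take up the most iron, for heme, and macrophages recover it from aged red cells with heme oxygenase. In most vertebrate cells, iron regulatory proteins bind the messages of some of these genes. Low iron thereby stabilizes the Tfr1 receptor message and blocks translation of ferritin. This second step acts on protein output and is not visible in RNA levels.

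The total count was between 12520034 and 15006574 per library, and 3 counts, taken as the limit of detection, corresponded to 0.155 to 0.293 CPM (counts scaled to library size after TMM correction). This limit covers counting error only. The mutated gene, listed as *hey2*, had 13.3, 10.6 and 9.95 CPM in WT replicates 1 to 3 and 15.6, 18.8 and 18.5 CPM in mutant replicates 1 to 3. Its RNA was therefore not lower in the mutants, and a deletion of this size need not change a transcript's level. Cardiomyocyte RNA was abundant in all 6 libraries, with *myl7*, a myosin light chain gene, between 11336 and 17871 CPM. The libraries fell into 2 sets that cut across genotype. WT replicates 1 and 2 and mutant replicate 1 held 0 counts of the mitochondrial gene *mt-co1*, and the remaining libraries, WT replicate 3 with mutant replicates 2 and 3, held 583890, 739939 and 593632. The labels name no batch for this division. It coincided with the first principal component, which held 60.8% of the variance. The genotype difference of each of the 8 iron genes is therefore also given within each of these sets. Each such difference rests on only 1 library of a genotype, mutant replicate 1 without *mt-co1* reads and WT replicate 3 with them. It is a description only.

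Per unit of transcript length, *fth1a* stood far above the other iron genes. Its mean over the 6 libraries was 4484 FPKM (fragments per kilobase of transcript, scaled to library size, with a range of 3209 to 5734), and 13 genes of the table had a higher mean. The receptor *tfr1a* followed at 56.0 FPKM (29.8 to 92.9), *tfa* at 47.4 (35.9 to 66.3), *slc11a2* at 44.8 (34.7 to 58.7), *tfr1b* at 33.5 (17.2 to 57.7), *hmox1a* at 30.6 (21.4 to 46.5) and *slc40a1* at 26.6 (16.0 to 40.0). Neighbours among these 6 genes overlapped in their ranges, so their order is that of the means only. *TFR2* was lowest at 2.13 FPKM (1.60 to 3.20), and its range did not reach that of any other iron gene. The order within a library depended on the set the library belonged to. *tfr1a* exceeded *slc11a2* in the 3 libraries without *mt-co1* reads, with 68.5, 73.8 and 92.9 against 35.7, 34.7 and 39.7 FPKM. In the 3 libraries with such reads *slc11a2* exceeded *tfr1a*, with 47.6, 58.7 and 52.6 against 35.5, 29.8 and 35.2 FPKM.

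**Figure D1:**
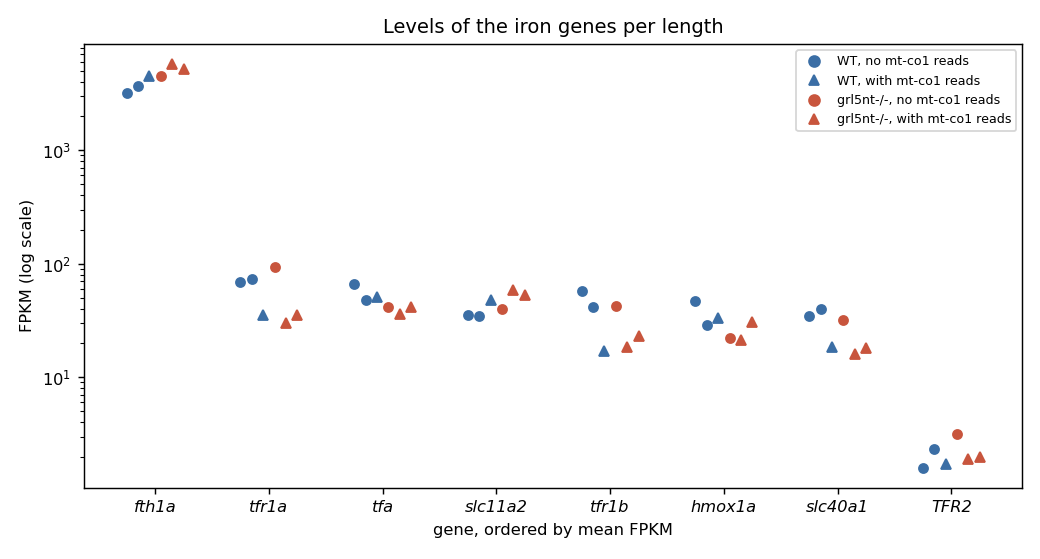
FPKM (log scale) of the 8 iron genes, ordered by mean, in the 3 WT and 3 grl5nt-/- libraries, with circles for libraries without mt-co1 reads and triangles for those with them. The points of fth1a lie between 3209 and 5734 and those of TFR2 between 1.60 and 3.20, while the other 6 genes lie between 16.0 and 92.9 with overlapping ranges.

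None of the 8 iron genes passed the test between genotypes. The quasi-likelihood test of edgeR called 0 of 8 at an adjusted p below 0.05, beside 12 (0.0769%) of all genes tested. Before adjustment 0 of 8 reached p below 0.05 as well, beside 10.6% of all genes (4.22% higher and 6.35% lower in the mutants). DESeq2 also called 0 of 8 after adjustment, and *fth1a* alone reached p below 0.05 before it (adjusted p = 0.423, DESeq2). By mean, 4 of the genes had a higher and 4 a lower value in the mutants, at a median log2 fold change of -0.03 beside -0.05 over all genes tested. The genotypes did not overlap for 1 of 8, *TFR2*, beside 15.6% of all genes (6.95% higher and 8.64% lower in the mutants). In bulk RNA of this kind, fewer cells of a type and less RNA per cell cannot be told apart. Without TMM factors, on the library totals alone, the median log2 fold change of all genes was -0.34, and the values below are relative to TMM scaling unless said otherwise.

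**Figure D2:**
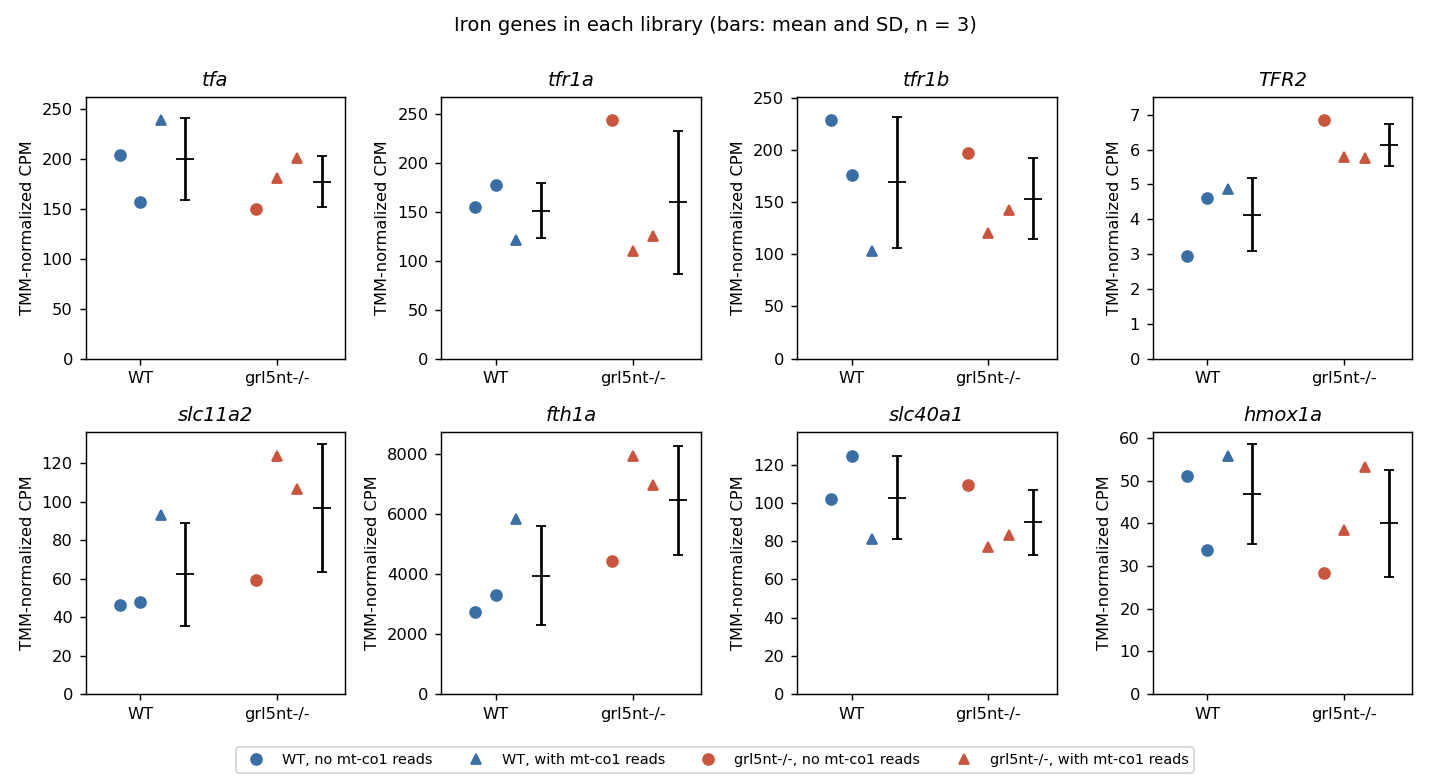
TMM-normalized CPM of each iron gene in each library by genotype, with circles for libraries without mt-co1 reads, triangles for those with them, and bars for the mean and SD (n = 3). The genotypes overlap for every gene except TFR2, whose highest WT value is 4.86 and lowest mutant value 5.76, and for fth1a and slc11a2 the triangles lie above the circles.

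The carrier gene *tfa* (chromosome 2, 17112044 to 17123598, GRCz10) encodes transferrin, which the liver secretes into plasma. It had 204, 157 and 239 CPM in WT replicates 1 to 3 and 150.2, 181 and 201 CPM in mutant replicates 1 to 3. The highest value was in WT replicate 3, the lowest in mutant replicate 1, and the genotypes overlapped. The mutants were at -0.17 relative to WT on the log2 scale (SE 0.25; adjusted p = 0.754 in edgeR's test). It was -0.25 within the libraries without *mt-co1* reads and -0.32 within those with them. Scaling mattered for this gene. By library totals alone it had 263, 190.4 and 203 CPM in WT and 167, 143 and 165 CPM in mutant libraries, which do not overlap, at a log2 difference of -0.47 (adjusted p = 0.517 with edgeR), beside the median of -0.34 for all genes on that scale.

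Liver RNA was scarce in the libraries that held this *tfa*. The summed level of 20 liver markers was 8.90, 5.97 and 13.5 CPM in WT replicates 1 to 3 and 5.95, 7.52 and 48.6 CPM in mutant replicates 1 to 3. Of the 20, 9 stayed under 1 CPM in every library. Among these, *vtnb*, a vitronectin gene, had 1 read in all, in mutant replicate 3, which is under the limit of detection. *ttr* and *vtna* had reads in other libraries but 0 in that one. *fabp10a*, the liver fatty acid binding protein gene, ranged from 1.57 to 13.3 CPM, also highest in mutant replicate 3. That library, with the most liver marker RNA, had 201 CPM of *tfa*, inside the WT range. The part of liver RNA in the *tfa* values was not tested.

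The receptor *tfr1a* (chromosome 2, 5008604 to 5034301) supplies transferrin iron to developing red cells in the zebrafish, where its loss, in the chianti mutants, causes anaemia. It had 155, 178 and 122 CPM in WT replicates 1 to 3 and 244, 110.5 and 125 CPM in mutant replicates 1 to 3. Mutant replicate 1 was the highest of the 6 libraries and mutant replicate 2 the lowest, so the mutant values enclosed all the WT values. On the log2 scale the difference was 0.08 (SE 0.33; adjusted p = 0.915 by edgeR) and turned negative, -0.16, by library totals and, without mutant replicate 1, -0.34. Within the libraries without *mt-co1* reads it was 0.55, and within those with them -0.05.

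Its paralog *tfr1b* (chromosome 24, 25870319 to 25887229) is the transferrin receptor that zebrafish tissues outside the erythroid lineage use. It had 228, 176 and 103 CPM in WT replicates 1 to 3 and 197, 120.4 and 143 CPM in mutant replicates 1 to 3. WT replicate 1 was highest and WT replicate 3 lowest, so here the WT values enclosed the mutant ones. Its log2 difference between genotypes was -0.14 (SE 0.33; adjusted p = 0.849 by edgeR), and it was 0.14 without WT replicate 1. Within the libraries lacking *mt-co1* reads it was -0.03, and within the others 0.35. Per length, *tfr1a* exceeded *tfr1b* in all 6 libraries, with ratios of 1.19, 1.76 and 2.06 in WT and 2.17, 1.60 and 1.54 in mutant replicates 1 to 3, which overlap. How reads shared by close paralogs were counted is not given in the sources used here, so the split between this pair is uncertain.

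*TFR2* (chromosome 23, 45228644 to 45250890) belongs to the same family, and in mammals its product acts in hepatocytes and erythroid precursors as a sensor of transferrin-bound iron. It had few reads, with counts of 57, 77 and 62 for WT replicates 1 to 3 and of 100, 67 and 59 for the mutant ones. As CPM these were 2.95, 4.60 and 4.86 in WT and 6.84, 5.79 and 5.76 in mutant libraries. Every mutant library was above every WT library after TMM scaling, but the genotypes overlapped by library totals. The fitted log2 difference was 0.57 (SE 0.30; adjusted p = 0.522 by edgeR). The exact permutation test gave p = 0.1, the smallest p that 3 libraries against 3 allow. Any gene without overlap gets this p, so it adds nothing to the lack of overlap. Within the libraries without *mt-co1* reads the difference was 0.87, and within those with them 0.24.

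The importer *slc11a2* (chromosome 11, 262379 to 268216), mutated in the anaemic chardonnay zebrafish, had 46.1, 47.6 and 93.1 CPM in WT replicates 1 to 3. In mutant replicates 1 to 3 it had 59.4, 124 and 107 CPM. Mutant replicates 2 and 3 were the highest, while mutant replicate 1 lay below WT replicate 3. Mutants exceeded WT by 0.64 on the log2 scale (SE 0.37; adjusted p = 0.545 by edgeR), short of the threshold. The difference was 0.34 within the libraries without *mt-co1* reads and 0.31 within those with them, so that in both sets the mutants were above the WT by less than the pooled value.

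The storage gene *fth1a* (chromosome 7, 12675224 to 12683988) encodes the ferritin heavy chain, which oxidizes iron as it enters the ferritin shell. It had 2718, 3294 and 5827 CPM in WT replicates 1 to 3 and 4445, 7947 and 6988 CPM in mutant replicates 1 to 3. The lowest 2 libraries were WT and the highest 2 mutant, but WT replicate 3 exceeded mutant replicate 1, so the genotypes overlapped. Its log2 difference of 0.71 was the largest of the 8 but did not pass (SE 0.43; adjusted p = 0.553 by edgeR). Within the libraries without *mt-co1* reads the mutant was higher by 0.57 and within those with them by 0.35. A fit with a term for the 2 sets gave 0.46 (adjusted p = 0.115 by edgeR). By library totals it was 0.44 (adjusted p = 0.523 by edgeR), against the lower median of all genes on that scale.

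The exporter *slc40a1* (chromosome 9, 41301340 to 41312091), mutated in the weissherbst zebrafish, had 102, 125 and 81.5 CPM in WT replicates 1 to 3. Mutant replicates 1 to 3 had 109.5, 77.0 and 83.2 CPM. The highest value was WT and the lowest mutant, with the rest interleaved. Its log2 difference was -0.19 (SE 0.25; adjusted p = 0.727 by edgeR), and it was -0.05 within the libraries lacking *mt-co1* reads and -0.03 within the others.

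The heme-degrading gene *hmox1a* (chromosome 3, 25880611 to 25886721) encodes the inducible enzyme that opens heme to biliverdin, carbon monoxide and free iron. It had 51.0, 33.7 and 55.8 CPM in WT replicates 1 to 3 and 28.2, 38.5 and 53.1 CPM in mutant replicates 1 to 3. Mutant replicate 1 was lowest and WT replicate 3 highest, with overlap between the genotypes. The mutants were at -0.23 relative to WT on the log2 scale (SE 0.29; adjusted p = 0.728 by edgeR). Within the set lacking *mt-co1* reads this was -0.55, and within the other set -0.30.

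**Figure D3:**
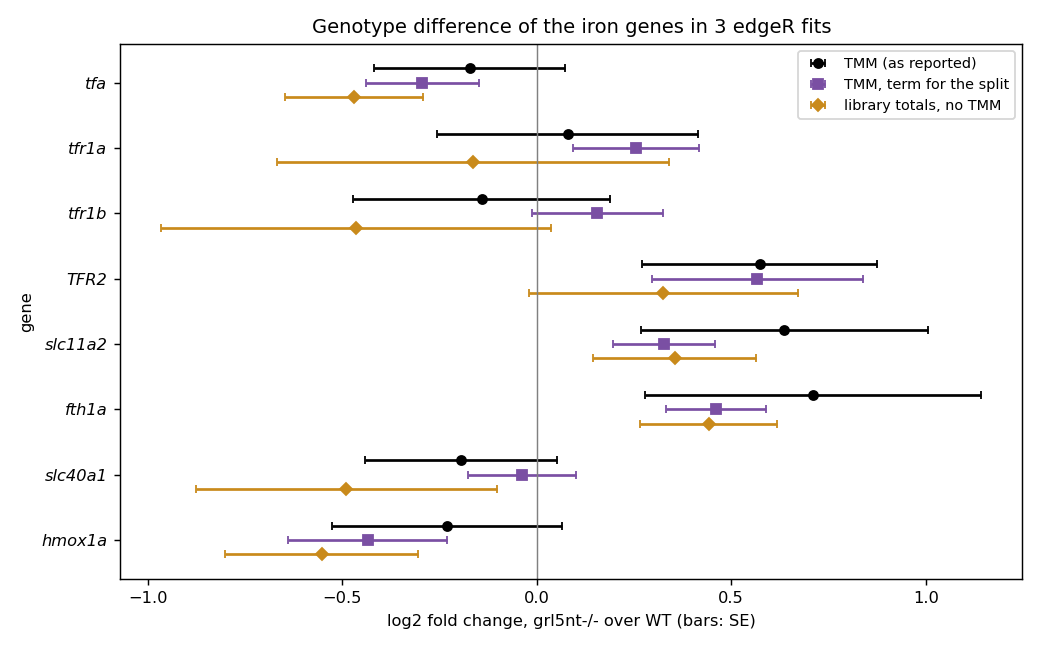
Log2 fold change of each iron gene, grl5nt-/- over WT, with its SE, in edgeR fits with TMM factors, with TMM factors and a term for the 2 sets of libraries, and with library totals alone. For fth1a the values are 0.71, 0.46 and 0.44, and tfr1a and tfr1b change sign between fits.

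The 2 sets of libraries, which cut across genotype, did not overlap for 5 of the 8 iron genes, beside 51.3% of all genes tested, so this share is near the background and is given as a description. *fth1a* and *slc11a2* were higher in the libraries with *mt-co1* reads (24.1% of all genes), by 0.96 and 0.99 on the log2 scale within WT and by 0.75 and 0.95 within the mutants. *tfr1a*, *tfr1b* and *slc40a1* were lower there (27.1% of all genes). For *tfr1a* the difference was -0.45 within WT and -1.05 within the mutants, for *tfr1b* -0.96 and -0.58, and for *slc40a1* -0.47 and -0.45. The endosomal importer and ferritin genes thus lay on the opposite side of the division from both Tfr1 receptors and the exporter. The log2 differences given here hold for TMM scaling. The same 5 genes did not overlap when scaled by library totals, but *fth1a* only narrowly. On that scale it had 3502, 3989 and 4934 CPM without *mt-co1* reads and 4955, 6255 and 5716 CPM with them. Among all pairs of the 8 genes, *slc11a2* and *fth1a* had the most similar profile, with a root mean square difference of 0.11 between their centred log2 CPM over the 6 libraries, and *tfr1b* and *slc11a2* the least, at 0.92. *tfa* and *hmox1a* came next in likeness, at 0.16.

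Under TMM scaling, summed marker levels of some other cell types moved with the same division. The TMM factors also divided by set, at 1.14 to 1.31 in the libraries without *mt-co1* reads and 0.788 to 0.851 in those with them. Relative to library totals, this scaling raises CPM in the libraries with such reads. The sums were not compared by library totals, so their division is given for TMM scaling only. The summed level of 12 erythrocyte markers was 9868, 20755 and 24769 CPM in the libraries without *mt-co1* reads (WT replicates 1 and 2 and mutant replicate 1). In WT replicate 3 and mutant replicates 2 and 3 it was 41221, 45678 and 33933 CPM. By genotype it ranged from 9868 to 41221 CPM in WT and from 24769 to 45678 CPM in the mutants, 8 of the 12 markers had a higher mean in the mutants, and 0 reached p below 0.05 before adjustment. The defining genes *hbaa1*, an alpha globin gene, and *alas2*, the first enzyme of erythroid heme synthesis, were abundant in every library, from 5508 to 28789 and from 1130 to 4700 CPM. Summed cardiomyocyte markers divided in the same direction, with 29304, 30119 and 30247 CPM in WT replicates 1 and 2 and mutant replicate 1 and 42443, 47027 and 41090 CPM in the other set. So did summed neutrophil markers, with 26.8, 34.0 and 29.5 CPM against 51.4, 57.2 and 52.8 CPM. Summed epicardium markers overlapped between the sets, with 334, 388 and 290 CPM against 444, 407 and 380 CPM. Not every cardiomyocyte marker followed its sum. In the fit with a term for the 2 sets, *myl7* (0.26), *cmlc1* (0.94) and *actc1a* (2.14) were higher with *mt-co1* reads on the log2 scale. *vmhc* (-1.21), *ryr2b* (-0.91), *tnni1b* (-0.48), *tnnt2a* (-0.35) and *nppa* (-0.17) were lower there. Among the neutrophil markers, *mmp9* (-0.03) was not higher there either. The part of red cells, cardiomyocytes or neutrophils in the *fth1a* and *slc11a2* values was not tested. Not all erythroid markers followed the globin, and *hbaa1* made up most of the summed level. In the fit with a term for the 2 sets, 7 of the 12 were higher and 5 lower with *mt-co1* reads. The 5 were *klf1* (-1.44), *sptb* (-1.33), *epb41b* (-1.22), *epor* (-0.58) and *rhag* (-0.06). *sptb*, an erythroid spectrin gene, had 311, 290.5 and 359 CPM in the libraries without *mt-co1* reads and 140.3, 113 and 131 CPM in those with them, the direction of *tfr1a*.

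Ratios between genes of the same library do not depend on how libraries are scaled. They were chosen after the values had been seen and are given without a test. The ratio of *fth1a* to *alas2*, per length, was 7.86, 6.28 and 5.61 in WT and 5.66, 5.52 and 5.54 in mutant replicates 1 to 3, a range of 1.42-fold. The 3 libraries without *mt-co1* reads were all above the other 3, with mutant replicate 1 (5.66) just above WT replicate 3 (5.61). WT replicate 1, the library with the least erythrocyte marker RNA, stood above the rest. *alas2* is itself one of those markers, so this position is partly built in. The mean ratio was 6.59 ± 1.15 (SD, n = 3) in WT and 5.57 ± 0.0717 (SD, n = 3) in the mutants. The ratio of *fth1a* to the sum of *tfr1a* and *tfr1b*, of storage to uptake, was 25.4, 31.6 and 86.2 in WT and 33.3, 118 and 90.1 in mutant replicates 1 to 3. It ranged over 4.65-fold, and the 3 libraries without *mt-co1* reads were all below the other 3. Within the sets the mutants exceeded the WT by 0.23 and 0.26 on the log2 scale.

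**Figure D4:**
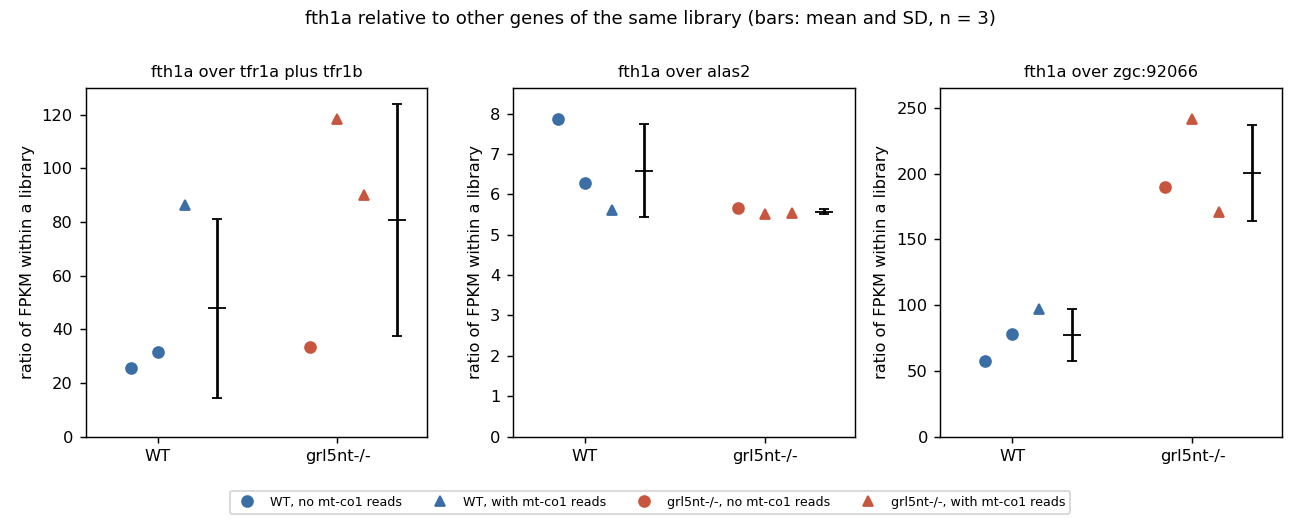
Ratio of the FPKM of fth1a to that of tfr1a plus tfr1b, of alas2 and of the ferritin-like gene zgc:92066 within each library, by genotype, with circles for libraries without mt-co1 reads, triangles for those with them, and bars for the mean and SD (n = 3). In the libraries without mt-co1 reads the ratio to the receptors is lower than in all those with them. The ratio to alas2 is higher there, at 5.66 to 7.86 against 5.52 to 5.61. The ratio to zgc:92066 is higher in every mutant than in every WT library.

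Macrophages, which recycle heme iron, were also measured through their markers. Of 10 macrophage markers, 9 had a lower mean in the mutants, with a median log2 fold change of -0.61, 0 called after adjustment and 4 below 0.05 before adjustment in the same edgeR fit (6.35% of all genes were lower at this threshold). Their summed level ranged from 310 to 543 CPM in WT and from 280 to 366 CPM in the mutants. *c1qa*, a complement component gene, had 66.5, 62.6 and 49.4 CPM in WT and 38.4, 38.4 and 38.9 CPM in mutant replicates 1 to 3, without overlap. *mpeg1.1*, a perforin-like gene, had 108, 105 and 50.9 CPM in WT and 53.7, 46.3 and 52.2 CPM in mutant replicates 1 to 3. *csf1ra*, a receptor gene for macrophage growth factors, had 19.5, 11.5 and 5.25 CPM in WT and 7.04, 3.29 and 4.00 CPM in mutant replicates 1 to 3. By set, the summed level was 532, 543 and 366 CPM without *mt-co1* reads and 310, 280 and 292 CPM with them, the direction of *slc40a1*. *hmox1a* overlapped between the sets, with 28.2 to 51.0 CPM without such reads and 38.5 to 55.8 CPM with them. By library totals it overlapped too, with 65.8, 40.8 and 31.3 CPM without such reads and 47.4, 30.3 and 43.5 CPM with them. No direction by set is therefore given for *hmox1a*. Summed endothelium markers also divided in the direction of *slc40a1*, with 704, 747 and 790 CPM without such reads and 575, 522 and 628 CPM with them. Some single markers went against these sums. *c1qc* of the macrophages and *flt1* and *pecam1* of the endothelium were higher with such reads in the fit with a term for the 2 sets. The part of macrophages or endothelium in the values of *slc40a1* and *hmox1a* was not tested.

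A wider list of 55 genes for iron and heme handling showed where the 8 genes stand in the pathway. The list matched 51 rows of the table, of which 41 were tested. The adjusted p was above 0.05 for all 41, with the smallest at 0.464 (edgeR), and by mean 25 stood above and 16 below WT in the mutants, at a median log2 difference of 0.20, beside -0.05 over all genes. The genotypes did not overlap for 3 of the 41, beside 15.6% of all genes. At an unadjusted p below 0.05 there were 6 (10.6% of all genes), 3 higher and 3 lower, and DESeq2 gave 5, with 0 after adjustment. The count moved with that of all genes when single libraries were left out. Leaving out WT replicate 1, WT replicate 2 or mutant replicate 2 gave 0, leaving out mutant replicate 3 gave 1, and leaving out WT replicate 3 or mutant replicate 1 gave 13. In the same fits the count over all genes, 1649 with every library, was 814, 791, 943 and 896 where the list's count fell, and 3608 and 4191 where it rose.

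Among the genes of iron storage, the ferritin-like gene listed as *zgc:92066* (ENSDARG00000031776, named *fthl27* in a table of gene names) differed from *fth1a*. It had 135, 119.9 and 171 CPM in WT and 66.6, 93.7 and 117 CPM in mutant replicates 1 to 3, and every mutant library was below every WT library. The mutants were at -0.62 on the log2 scale (SE 0.27; adjusted p = 0.471 by edgeR), and with a term for the 2 sets it was -0.82, with an adjusted p of 0.0386 by edgeR, a call that none of the other alternatives gave. The ratio of *fth1a* to it was 57.3, 78.2 and 96.9 in WT and 190.0, 241 and 170.4 in mutant replicates 1 to 3. This is a description of a gene chosen for its low p, and ferritin-like copies can share reads. The cargo receptor *ncoa4*, which carries ferritin to lysosomes so that its iron is released, had 170.0, 229 and 417 CPM in WT and 421, 569 and 480 CPM in mutant replicates 1 to 3. The genotypes did not overlap, WT replicate 3 being just below mutant replicate 1, and the log2 difference was 0.85 (SE 0.35; adjusted p = 0.464 by edgeR). The second ferritin heavy chain gene, *fth1b*, had 25.2 to 42.1 CPM across the libraries.

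All 8 tested genes of mitochondrial iron and iron-sulfur cluster handling had a higher mean in the mutants under TMM scaling. Over all 15602 genes tested, 7314 were higher. The median log2 fold change of the 8 was 0.26, and 0 passed after adjustment. The direction depended on scaling, since by the deposited FPKM *nfs1*, *abcb8*, *abcb10* and *fxn* had a lower mean in the mutants. *slc25a37* encodes mitoferrin, the mitochondrial iron importer of erythroid cells, and is mutated in frascati zebrafish. Like *tfr1a*, it was lower in every library with *mt-co1* reads than in every library without them (27.1% of all genes). It had 6.94, 9.37 and 5.80 CPM in WT and 15.3, 5.97 and 4.78 CPM in mutant replicates 1 to 3, again highest in mutant replicate 1. The lowest library was mutant replicate 3 for *slc25a37* and mutant replicate 2 for *tfr1a*. The ratio of *tfr1a* to *slc25a37*, per length, stayed between 14.3 and 23.5.

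Among the regulators, *aco1*, which encodes the cytosolic aconitase that becomes an iron regulatory protein when it lacks its cluster, was at low counts. Its count was 98, 63 and 25 in the WT libraries and 31, 18 and 5 in the mutant ones, which overlap, with a log2 difference of -1.35 (SE 0.56; adjusted p = 0.464 by edgeR). *bach1a*, a heme-sensing repressor of heme oxygenase genes, had 19.2, 14.2 and 5.72 CPM in WT and 9.02, 2.68 and 4.20 CPM in mutant replicates 1 to 3, which overlap. *keap1a*, whose product holds the activator Nrf2 in the cytoplasm, had 23.2, 20.9 and 34.4 CPM in WT and 30.8, 50.0 and 41.1 CPM in mutant replicates 1 to 3, also with overlap. Neither passed after adjustment, with log2 fold changes of -1.29 and 0.63. These regulators also divided by the 2 sets of libraries. With *mt-co1* reads, *aco1* and *bach1a* were lower in every library than in any without them (27.1% of all genes). *keap1a* was higher in every library with such reads (24.1% of all genes). With a term for the 2 sets, the log2 differences between genotypes were -0.99 for *aco1*, -0.82 for *bach1a* and 0.44 for *keap1a*. The heme oxygenase gene *hmox1a* differed by -0.23 on the log2 scale.

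In the remaining roles the gene with the smallest p was *slc48a1b* (heme transport, log2 fold change 0.46), *hmox2a* (the constitutive heme oxygenase, 0.40), *hephl1a* (a ferroxidase, -0.64) and *snx3* (receptor recycling, 0.19, and -0.10 by library totals). None had an unadjusted p below 0.05. *hamp*, which encodes hepcidin, the hormone that removes ferroportin from the cell surface, was at 1, 0 and 7 reads in the WT libraries and at 0, 0 and 1 in the mutant ones. *hpx*, hemopexin, the heme scavenger of plasma, was at 2, 0 and 3 reads in the WT libraries and at 0, 0 and 23 in the mutant ones, the last in the library with the most liver marker RNA.

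**Figure D5:**
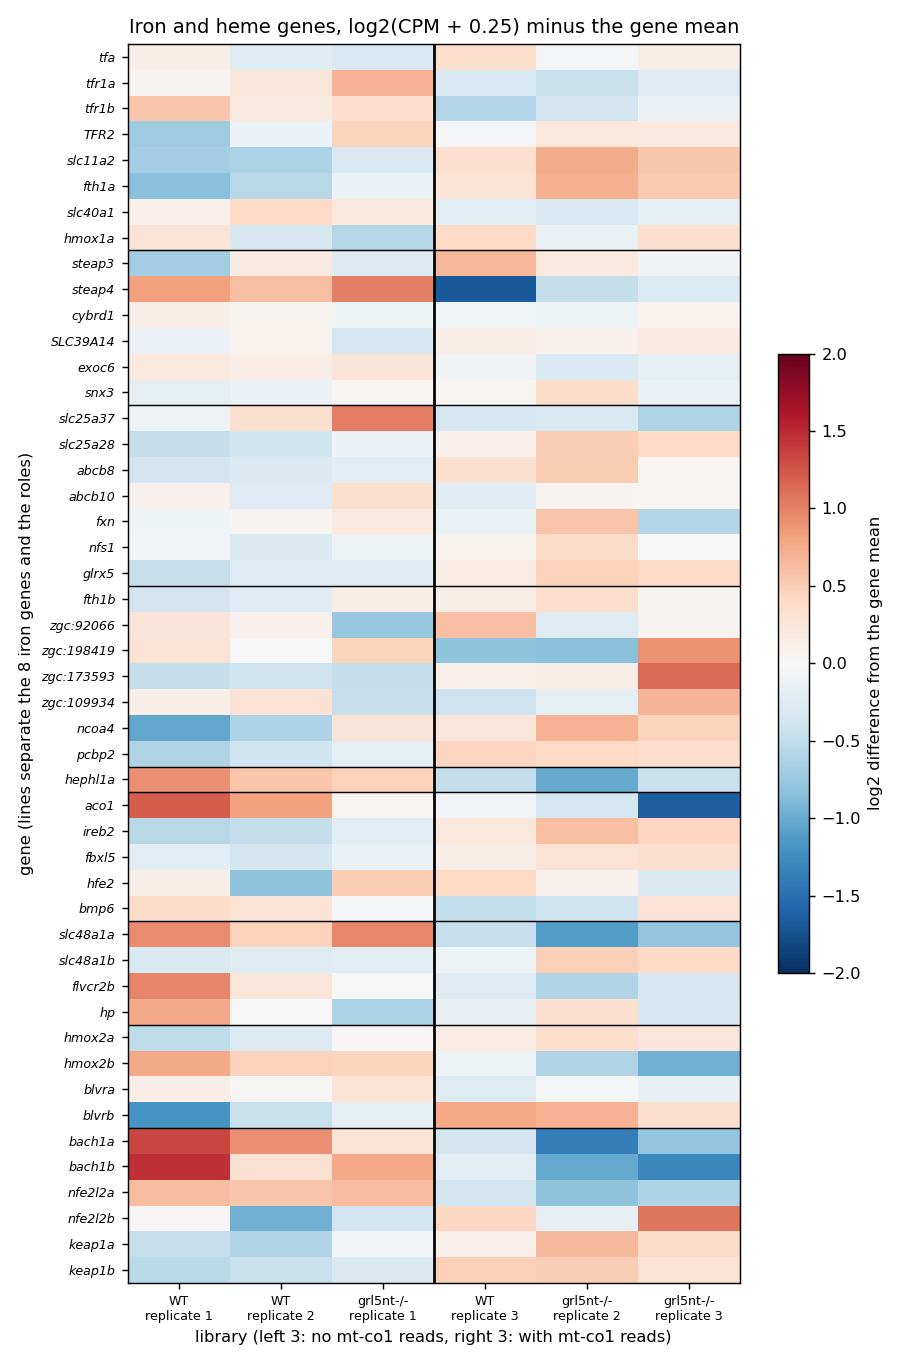
Log2(CPM + 0.25) of the 8 iron genes and of other tested iron and heme genes in each library, each minus the mean of its gene, with the libraries without mt-co1 reads on the left and those with them on the right. Within the 8, fth1a and slc11a2 are higher on the right and tfr1a, tfr1b and slc40a1 on the left.

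The genes whose profile over the 6 libraries lay closest to each iron gene were sought among tested genes averaging 1 FPKM or more, by the root mean square difference of centred log2 CPM. For *fth1a* they were *dnaja3a*, *aurkb* and *selj*, at 0.05 to 0.06, beside a median of 0.59 over genes. For *slc11a2* they were *si:ch211-165g14.1*, *clybl* and *tamm41*, at 0.04 to 0.05. For *tfr1a* they were *top1l*, *cav1* and *hic1*, at 0.05 to 0.07, and for *tfr1b* they were *tpra*, *MNT (1 of many)* and *CABZ01077218.1*, at 0.05 to 0.06. The list for *TFR2* was *hsdl1*, *cyp2p6* and *rasgef1ba*, for *tfa* it was *ankmy2a*, *urb1* and ENSDARG00000101676, for *slc40a1* it was *arrdc1b*, *fdps* and *impad1*, and for *hmox1a* it was *nell2a*, *socs9* and *selk*. *hmox1a* had the most distant neighbours of the 8, at 0.08 to 0.11. None of these neighbours passed the genotype test after adjustment.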

How the data were processed

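RNA from 3 WT and 3 *grl5nt-/-* libraries was analysed, of the 12 samples of the series. Per the submitters' processing notes and the methods, the authors used HISAT2 2.0.4 for mapping, against GRCz10, and StringTie 1.3.0 for FPKM. The authors deposited 1 table with raw counts and FPKM per gene. The program that counted reads and its use of strand are not given in the sources used here, and no other gene of the table overlaps any of the 8.

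From the counts, TMM factors were computed, and a two-sided quasi-likelihood test was run in edgeR 4.0.16 under R 4.3.3. Its filterByExpr function kept 15602 genes, and p-values were adjusted over all of these by the Benjamini-Hochberg method. Log2 CPM used a prior count of 2. The deposited FPKM were used for levels, ratios and as an alternative. Named genes are the 8 iron genes, other iron and heme genes with an unadjusted p below 0.05 or the smallest p of their role, at most 3 genes per marker list by smallest p and 3 by highest mean FPKM, the 3 nearest profiles of each iron gene, *hey2* and *mt-co1*. *sptb*, *klf1*, *epb41b*, *epor*, *rhag*, *vtnb*, *fabp10a*, *myl7*, *slc25a37*, *fth1b*, *hamp* and *hpx* were added after their values had been seen. So were the other cardiomyocyte markers that are named, *ttr*, *vtna*, *nfs1*, *abcb8*, *abcb10*, *fxn*, *flt1*, *pecam1* and *c1qc*. The 8 genes and all lists were chosen with earlier results of these data known. Alternatives were a block for the replicate number, omission of each library in turn, a term for the sets of libraries, library totals, DESeq2 1.42.0 and edgeR with the size factors of DESeq2, all genes without filtering, only genes averaging 1 FPKM or more, an adjusted p below 0.1, and limma 3.58.1 on log2 FPKM with an offset of 1 or of 0.1. Only the main edgeR fit was tested on simulated data, which held no division of the libraries into sets. The list genes were matched by symbol, by an older symbol or through a gene identifier table, and 8 were not matched. Among the listed genes that the rule names, 1 is not reported here.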

Additional observations from a re-analysis of the deposited data

How the results depend on the processing

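None of the 8 iron genes passed an adjusted p of 0.05 under any alternative run. Their number below an unadjusted p of 0.05 was 0 as reported, 1 with DESeq2, 2 each with library totals, limma on log2(FPKM + 1), limma on log2(FPKM + 0.1) and a term for the 2 sets of libraries, and 0 to 2 with each library left out. The log2 fold change of *fth1a* ranged from 0.44 to 1.12 and that of *slc11a2* from 0.33 to 1.06, both highest without WT replicate 3. *tfr1a* reversed to -0.16 by library totals, -0.29 with limma at either offset, and -0.34 to 0.29 over all alternatives. *tfr1b* reversed to 0.16 with the term for the sets, 0.14 without WT replicate 1 and 0.01 without mutant replicate 2, and was -0.39 without WT replicate 3. *snx3* reversed to -0.10 by library totals and to -0.10 and -0.11 with limma. The log2 ratio of *tfr1a* to *tfr1b* (0.10 as reported) became -0.13 without WT replicate 1 and -0.05 without mutant replicate 1 and reached 0.27, and that of *tfr1a* to *slc25a37* (-0.07) ranged from -0.27 to 0.0897, the latter without mutant replicate 1. For the other iron genes the 6 below an unadjusted p of 0.05 became 2 with library totals, 3 and 2 with limma, 10 with the term for the sets and 0 to 13 with a library left out. That term gave 1 call among them after adjustment, *zgc:92066*, and 1 among the marker lists, *tbx18* of the epicardium. Over all genes the 12 calls became 242 with DESeq2, 4 with library totals, 39 without a filter, 4 among genes averaging 1 FPKM or more, 5 with limma on log2(FPKM + 1), 241 with the term for the sets, 23 at an adjusted p below 0.1 and 3 to 30 with a library left out. The 1649 at an unadjusted p below 0.05 became 2817 with the term and 791 to 4191 with a library left out. The cause of these shifts was not tested.

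For libraries with equal replicate numbers, 1 to 3, the correlations of deviations from the group mean were 0.59, -0.34 and 0.39. WT replicate 2 and mutant replicate 2 belong to different sets. These values therefore cannot show whether equal numbers pair the libraries. With the replicate block, 2 of the 8 iron genes (*fth1a* and *slc11a2*) and 10 of the other iron genes were below an unadjusted p of 0.05, and 132 genes were called after adjustment and 2836 before it. At the depth of these libraries *TFR2*, *aco1*, *hamp* and *hpx* rest on few reads.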
